A study of Homo sapiens with 8 samples.

Results

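Ribosome footprints of MOLM-13 cells, an established human acute myeloid leukemia line, were compared between cells with a hairpin against circMYBL2 and cells with a control hairpin. The genes described are the protein-coding genes with a footprint value above 0 in all 4 footprint libraries. They number 4202 of the 19847 protein-coding genes in the table, and of the 10820 protein-coding genes above 0 in at least 1 footprint library. The series holds 8 libraries in 4 groups of 2: footprints with the control hairpin (sh-NC), footprints with the circMYBL2 hairpin (sh-circMYBL2), and the input RNA of each. All 8 come from the same line, which is known to carry an internal tandem duplication of FLT3 and an MLL fusion, and none is free of a hairpin. The labels give no time, dose or vector for the hairpins, and nothing in them says that libraries of a group are from different cultures. The p-values below therefore measure only the spread between these libraries, which may be technical. The sh-NC footprint libraries are called 1 and 2. The sh-circMYBL2 footprint columns name the group but not the replicate, and are called a and b. The circular RNA is not among the table's genes, so the knockdown was not analysed here.

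Ribosome profiling sequences the short pieces of mRNA that a translating ribosome shields from nuclease. The number of these footprints on an mRNA follows both how much of the mRNA there is and how many ribosomes each copy carries, and input RNA measures the first of these. The cell's largest classes of translated mRNA include those for ribosomal proteins, elongation factors, histones and actin, and in myeloid cells also those for granule proteins. circMYBL2 is a circular RNA from the MYBL2 locus, whose linear mRNA encodes a transcription factor of the cell cycle. Values are footprint RPKM (reads scaled to gene length and to the library's scaling total) and input RNA FPKM, the same for fragments.

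Depth differed strongly between the footprint libraries. Recovered reads on all genes numbered 80156 and 300373 under sh-NC and 222844 and 715055 under sh-circMYBL2, and those on the 4202 genes 31178, 72903, 98728 and 450638 in the same order. The microRNA share of reads was 42.7% and 57.2% under sh-NC and 32.8% and 12.2% under sh-circMYBL2. A gene of the set had a median of 5, 10, 15 and 64 reads, and 1 read in a gene of median length was worth 2.16, 0.958, 0.687 and 0.16 RPKM. Input RNA libraries had 13504472 to 14603056 reads. Across the 4202 genes, log2 levels of the libraries under sh-circMYBL2 followed each other more closely (Pearson r = 0.901) than those under sh-NC (r = 0.63), while r was 0.613 to 0.773 between the hairpins. These are correlations across genes, which are not independent replicates. Reads on the set were thus more numerous and the microRNA share was lower in both libraries under sh-circMYBL2, while reads on all genes overlapped between the hairpins. The scaling totals recovered from the RPKM did not overlap. They were 82265 and 185632 under sh-NC and 258923 and 1113399 under sh-circMYBL2. The part of depth, scaling or microRNA share in the results was not tested.

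Detection in the shallowest library set most of the boundary of the gene set. Another 3103 protein-coding genes were above 0 in exactly 3 footprint libraries, and 2461 of them were at 0 in sh-NC library 1 alone. The other 586, 53 and 3 were at 0 in sh-NC library 2, library a and library b alone. The 515 genes of the set with a single read in sh-NC library 1 had median levels of 2.19 and 5.91 RPKM under sh-NC and 6.09 and 6.79 RPKM under sh-circMYBL2. Just outside, the 2461 genes had median levels of 0, 4.43, 4.0 and 4.45 RPKM. SMG1, a kinase of nonsense-mediated decay, had the lowest value of the set in sh-NC library 1, at 0.468 RPKM from 1 read, against 4.77, 4.76 and 6.6 RPKM in the others. GLO1, which detoxifies methylglyoxal, lay outside with 0 and 55.0 RPKM under sh-NC and 69.0 and 154 RPKM under sh-circMYBL2. Genes just inside and just outside the rule thus differed by as little as 1 read in sh-NC library 1.

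The 10 genes with the highest footprint levels of the set were SRGN, LYZ, PRTN3, MT-ND6, ACTG1, HIST1H1B, HIST1H3B, ACTB, CLEC11A and HIST1H1E, in that order of their means. SRGN, the proteoglycan core of granules, had 1754 and 1713 RPKM under sh-NC and 2716 and 4834 RPKM under sh-circMYBL2. LYZ, lysozyme, had 1041 and 1582 RPKM under sh-NC and 2901 and 4198 RPKM under sh-circMYBL2. Both were higher in each library under sh-circMYBL2 than in either under sh-NC, but library b alone was far above the rest for SRGN. The log2 change was 1.06 (SE 0.57, limma adjusted p = 0.574) for SRGN and 1.44 (SE 0.55, adjusted p = 0.406) for LYZ. Neither gene passed limma after adjustment over all genes tested. Their input RNA differed by -0.04 and 0.33 on the log2 scale, and neither passed limma (adjusted p = 0.571 and 0.0554), while voom called the RNA of LYZ (adjusted p = 3.21e-09). PRTN3, the serine protease proteinase 3 of primary granules, had 1602 and 1293 RPKM under sh-NC and 1321 and 870.7 RPKM under sh-circMYBL2, which overlap. CLEC11A, a secreted growth factor for blood progenitors, had 711.6 and 436.4 RPKM against 368.1 and 223.8 RPKM, with no overlap and a log2 difference of -0.95 (SE 0.49, adjusted p = 0.558). The cytoplasmic actins were level: ACTG1 had 690.3 and 711.4 RPKM against 586.6 and 721.0 RPKM, and ACTB 657.1 and 431.8 RPKM against 488.7 and 449.6 RPKM. ACTB and ACTG1 are near-identical copies, as are many histone genes, so short reads may have been split between them.

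**Figure D1:**
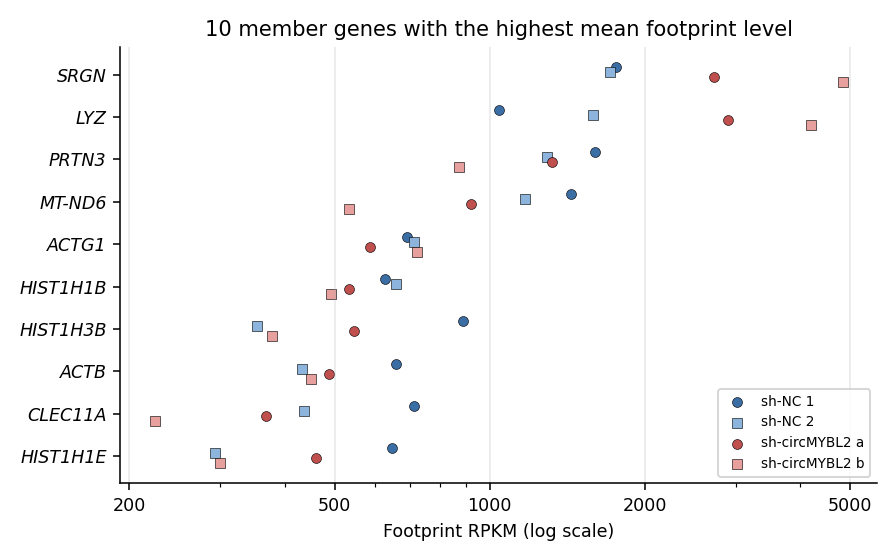
Footprint RPKM (log axis) of the 10 genes of the set with the highest mean level, one point per library, blue for sh-NC and red for sh-circMYBL2. SRGN and LYZ lie higher in both libraries under sh-circMYBL2, and the actins and PRTN3 overlap between the hairpins.

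Markers of cell type fit the myeloid label of the line in part. Of 30 markers of myeloid and monocytic cells, 16 were in the set, with LYZ, PRTN3, ELANE and AZU1 the highest. Of these 16, 6 had a footprint change above and 10 below 0, with a median of -0.20. The whole list held 448 and 1032 reads under sh-NC and 2061 and 10693 reads under sh-circMYBL2, of which LYZ alone gave 151, 518, 1325 and 8245. ELANE, neutrophil elastase, had 626.7 and 262.0 RPKM under sh-NC and 360.7 and 263.0 RPKM under sh-circMYBL2. CD33, a surface antigen of myeloid blasts, had 6.10, 5.41, 4.53 and 5.41 RPKM in the same order of libraries, which was nearly level. CD14, a receptor of mature monocytes, was at 0 in 3 of the footprint libraries and S100A8 in all 4. No marker of lymphoid cells, megakaryocytes or adherent cells was in the set, and of 18 erythroid markers only EPOR was. All erythroid markers together had 5 and 4 reads under sh-NC and 3 and 15 under sh-circMYBL2, lymphoid ones 0 and 1 against 3 and 12, adherent ones 2 and 1 against 1 and 6, and megakaryocyte ones 0 in each library.

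Across the set, footprints differed between the hairpins by about as much in each direction, and no single gene passed the main test. Of the 4202 genes, 4199 reached the mean of 1 RPKM needed for the test (not UVSSA, MELTF or CLK3). The rule used the presence of footprints, so the changes are described beside the test over the whole table. The median log2 change was 0.04 in the set, with 2168 genes above and 2031 below 0, against a median of 0.56 over all 9431 genes tested. The middle part of the set, from the 25% to the 75% quantile, spanned -0.52 to 0.61. At least 2-fold lower were 482 genes and at least 2-fold higher 501. Limma called none of the 4199 genes at an adjusted p under 0.05 (0.0% of all genes tested were called), with 0.323 as the smallest adjusted p. At an unadjusted p under 0.05 it found 190 genes of the set, or 4.52%, against 12.9% of all genes tested. The median SE of a footprint change was 0.66, against 0.06 for input RNA.

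A count-based fit (voom, which weights each value by its reads) called 19 genes of the set lower under sh-circMYBL2, or 0.452%, against 0.53% of all genes tested. It called 0 higher, against 0.0636% of all genes tested, and all 19 had groups that did not overlap. By the simpler measure of non-overlap, 863 genes of the set (20.6%) were lower in both libraries under sh-circMYBL2 than in both under sh-NC, against 10.9% of all genes tested. Another 994 (23.7%) were higher, against 30.7%. Genes absent from a library cannot enter the set, and many of those were at 0 under sh-NC only, which bears on both shares. The direction of the change also went with gene length and read number, and the way reads and genes were counted bears on both. Read number sums the same 4 libraries, so a gene higher under sh-circMYBL2 gains reads, most of all in library b. A short gene needs a higher RPKM than a long one to have the read that the rule asks of sh-NC library 1. The median log2 change was -0.25 in the 1051 genes with the shortest exonic length (207 to 3689 bases) and 0.31 in the 1051 with the longest (8172 to 44060 bases). It was -0.49 in the 1072 genes with the fewest reads (6 to 53) and 0.41 in the 1044 with the most (180 to 10240), where library b gives most of the reads. Input RNA changed by a median of -0.01 to 0.06 in these strata. The part of length or read number in single genes was not tested.

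**Figure D2:**
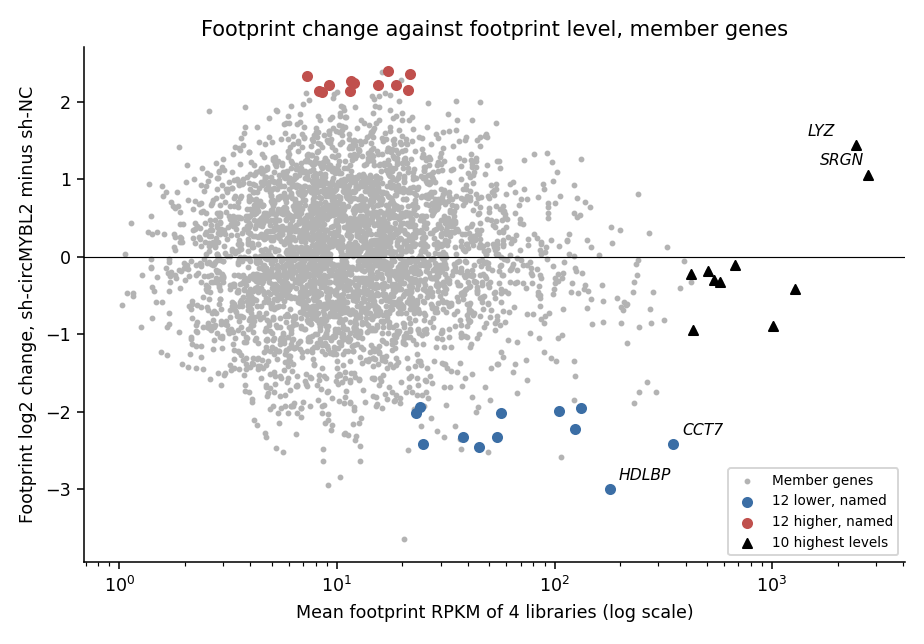
Footprint log2 change (sh-circMYBL2 minus sh-NC, on log2(RPKM + 1)) of each gene of the set against its mean RPKM over 4 libraries (log axis), with the 12 lower and 12 higher genes named below and the 10 highest levels marked. The median level is 55.7 RPKM for the 12 lower and 11.8 RPKM for the 12 higher genes, and HDLBP, CCT7, SRGN and LYZ are labelled.

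HDLBP, DNAJC7, CCT7 and TCOF1 had the largest decreases among genes with at least 100 reads whose groups did not overlap. Non-overlap and a large change were conditions of this choice and are no support for these genes. The 12 genes with the largest such decreases had 52 to 985 reads under sh-NC, a median level of 55.7 RPKM (10.8 RPKM for the set) and a median exonic length of 5450 bases (5622 for the set). None passed limma (adjusted p = 0.323 to 0.509), while voom called 11 of them. Input RNA of the 11 that were tested differed by -0.19 to 0.23 on the log2 scale. None passed limma in RNA, while voom on RNA called SF3A2 (adjusted p = 0.00172), RPL37A (0.0226) and RAB8A (0.0253).

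HDLBP (vigilin), an RNA-binding protein that associates with mRNAs on the endoplasmic reticulum, stood first. It lies on chromosome 2 at 241227291 to 241315672 (GRCh38.p14). It had 369.2 and 272.0 RPKM under sh-NC, from 370 and 615 reads, and 47.24 and 31.78 RPKM under sh-circMYBL2, from 149 and 431 reads. Every value under sh-NC was above every value under sh-circMYBL2, and in reads the deepest library had fewer than sh-NC library 2. The mean of sh-NC was 8.11 times that of sh-circMYBL2. The log2 change was -3.00 (SE 0.41), with limma adjusted p = 0.323 and voom adjusted p = 1.61e-05, and it stayed between -3.28 and -2.72 with any 1 library left out. Its input RNA was 18.3 ± 0.523 FPKM under sh-NC and 18.9 ± 0.807 FPKM under sh-circMYBL2 (mean ± SD, n = 2 each).

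Among folding factors, CCT7, a subunit of the chaperonin TRiC that folds actin and tubulin, had 561.9 and 612.1 RPKM under sh-NC and 145.2 and 81.54 RPKM under sh-circMYBL2. The log2 change was -2.42 (SE 0.44, voom adjusted p = 0.00128), with input RNA level at 37.3 ± 0.542 and 38.2 ± 0.835 FPKM (n = 2 each). The other TRiC subunits did not follow it, as described below. DNAJC7, a co-chaperone of HSP70 and HSP90, had 92.08 and 59.77 RPKM against 19.78 and 8.049 RPKM. TIMM13, a small chaperone of the mitochondrial intermembrane space, had 295.7 and 109.2 RPKM against 70.47 and 20.03 RPKM, with a wide spread within both groups. Log2 changes were -2.46 for DNAJC7 and -2.22 for TIMM13, and voom called both.

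Genes of ribosome production and splicing were next. TCOF1, the nucleolar protein treacle of ribosomal RNA transcription, had 40.96 and 42.51 RPKM under sh-NC and 11.64 and 4.141 RPKM under sh-circMYBL2. RPL37A, a protein of the large ribosomal subunit, had 39.09 and 36.22 RPKM against 7.904 and 9.190 RPKM. In RPL37A both groups were tight and far apart, and the log2 change was -2.02 (SE 0.43, limma adjusted p = 0.323, voom adjusted p = 0.0452). SF3A2, a splicing factor of the branch-site complex, had 116.4 and 67.04 RPKM against 18.49 and 15.48 RPKM, a log2 change of -2.32. The remaining genes act in traffic, protein turnover or heparan sulfate synthesis, or lack a known role. VPS36, of the sorting complex that delivers proteins to the lysosome, had 194.9 and 138.2 RPKM against 57.10 and 28.64 RPKM. COPS2, of the signalosome that regulates ubiquitin ligases, had 74.46 and 106.9 RPKM against 33.43 and 13.27 RPKM. In both genes every sh-NC value exceeded every value under sh-circMYBL2 by at least a factor of 2. RAB8A, a GTPase of secretory vesicles, had 348.9 and 85.10 RPKM against 69.19 and 27.68 RPKM, so that sh-NC library 2 lay close to library a. EXT2, which polymerises heparan sulfate, had 43.69 and 33.63 RPKM against 11.69 and 7.306 RPKM and was the 1 gene of the 12 that voom did not call (adjusted p = 0.0523). C6orf223 had 24.83 and 107.3 RPKM against 7.888 and 11.69 RPKM, and its RNA was below the level needed for a test.

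The other 8 genes that voom called lower were CAMK1, MEA1, LMNB1, CENPA, MRPL32, RACGAP1, E2F4 and MTO1. LMNB1, lamin B1 of the nuclear lamina, had 331.2 and 397.4 RPKM under sh-NC and 110.6 and 85.04 RPKM under sh-circMYBL2, a log2 change of -1.89 (SE 0.37, voom adjusted p = 0.0259). CENPA, the histone variant of centromeres, had 214.6 and 165.7 RPKM against 77.91 and 33.97 RPKM. E2F4, a repressor that works with the retinoblastoma family, had 122.2 and 84.22 RPKM against 40.97 and 20.81 RPKM. MTO1, which modifies mitochondrial transfer RNA, had 46.32 and 48.64 RPKM against 16.64 and 12.05 RPKM. Each of these genes had its lowest value in library b. RACGAP1, of the central spindle in cytokinesis, had 105.7 and 54.03 RPKM against 25.82 and 15.81 RPKM. Its input RNA passed the test in the other direction, with a log2 change of 0.64 (limma adjusted p = 0.0359). No annotated small RNA gene lay within the bounds of any of the 19 genes, against 13.1% of the 4172 genes of the set with a known position.

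**Figure D3:**
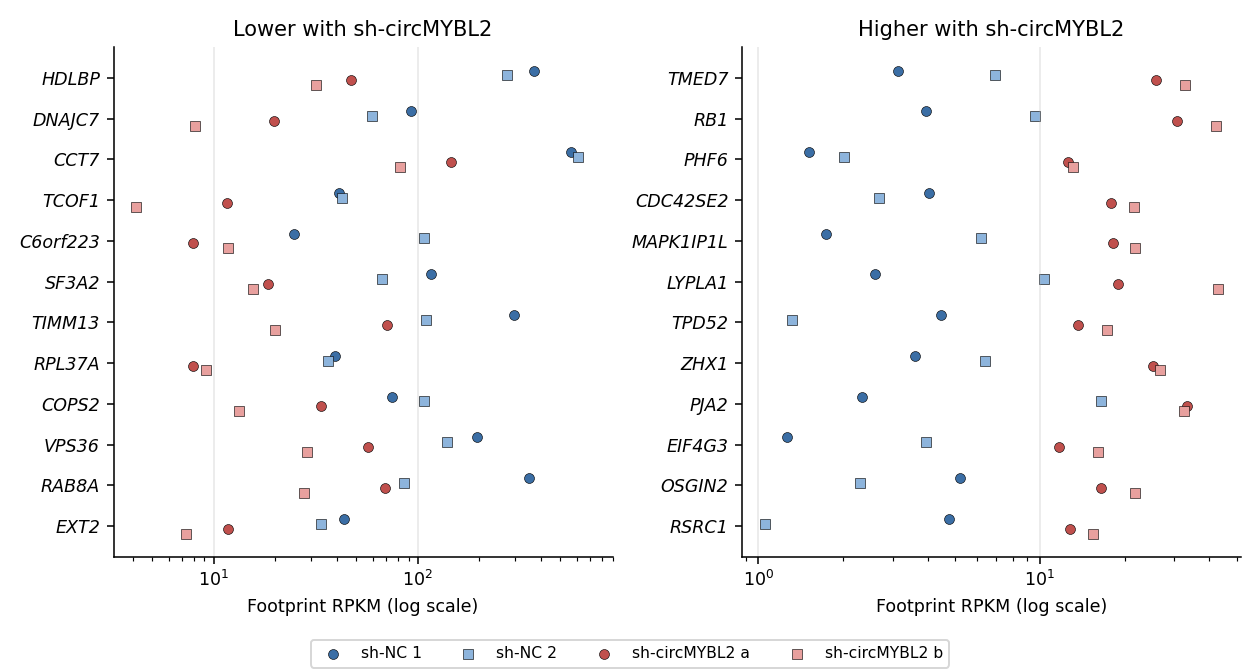
Footprint RPKM (log axis) in each library for the 12 genes with the largest decrease (left) and the 12 with the largest increase (right) among genes with at least 100 reads whose groups do not overlap. The genes on the right were chosen on sh-NC levels that rest on 3 to 17 reads in all.

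The largest increases on at least 100 reads rested on very few sh-NC reads. The 12 genes had 1 to 3 reads each in sh-NC library 1 and 3 to 17 reads over both sh-NC libraries, and a median level of 11.8 RPKM. None passed limma (adjusted p = 0.323 to 0.487) or voom (adjusted p = 0.21 to 0.299). RB1, the retinoblastoma protein that holds back entry into S phase, had 3.941 and 9.606 RPKM under sh-NC, from 2 and 11 reads, and 30.68 and 42.37 RPKM under sh-circMYBL2, from 49 and 291 reads. The log2 difference was 2.36 (SE 0.61). Input RNA of RB1 differed by 0.15, which voom called (adjusted p = 0.00186) and limma did not (adjusted p = 0.062). TMED7, a cargo receptor of the early secretory pathway, had 3.122 and 6.917 RPKM against 25.79 and 32.75 RPKM, on 1 and 5 reads under sh-NC. PHF6, a chromatin adaptor mutated in leukemias, had 1.516 and 2.016 RPKM against 12.53 and 13.11 RPKM, on 1 and 3 reads under sh-NC. Groups that lie apart were a condition of the choice and are no support for these genes. All 12 genes, those of the next paragraph included, reached 100 reads only through the sh-circMYBL2 libraries. RB1, TMED7 and PHF6 had 13, 6 and 4 reads under sh-NC against 340, 168 and 143 under sh-circMYBL2.

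The other genes with large increases were of several kinds. ZHX1, a transcriptional repressor, had 3.607 and 6.393 RPKM under sh-NC and 25.21 and 26.78 RPKM under sh-circMYBL2. EIF4G3, a scaffold of the cap-binding initiation complex, had 1.267 and 3.930 RPKM against 11.67 and 16.10 RPKM. LYPLA1, a thioesterase that removes palmitate from proteins, had 2.590 and 10.33 RPKM against 18.92 and 43.05 RPKM. In each the lowest value was in sh-NC library 1. ZHX1 and EIF4G3 are the 2 of these 12 with an annotated small RNA gene within their bounds. That is 16.7%, near the 13.1% of the 4172 genes of the set with a known position. CDC42SE2, MAPK1IP1L, TPD52, PJA2, OSGIN2 and RSRC1 complete the 12, with log2 differences of 2.13 (RSRC1) to 2.27 (CDC42SE2). The input RNA of TPD52 and EIF4G3 was lower under sh-circMYBL2 (log2 change -0.30 and -0.23, limma adjusted p = 0.0379 and 0.0347), and that of PJA2 was higher (0.20, adjusted p = 0.0462). Voom on RNA called these as well. Besides RB1, it also called CDC42SE2 (adjusted p = 0.00107) and RSRC1 (0.0204) higher and ZHX1 (0.00049) lower.

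Genes of the translation machinery spread to both sides of 0. The ribosomal protein genes are highly expressed, and an oligopyrimidine tract at the start of their mRNAs lets growth signals regulate their translation as a group. Of 46 large-subunit genes found, 37 were in the set, with 14 above and 23 below 0 and a median of -0.10, and 24 of 32 small-subunit genes had 11 above and 13 below 0 and a median of -0.08. Under quantile normalization the medians were 0.01 and 0.06. With 1 library left out they ranged over -0.53 (without sh-NC library 2) to 0.04 (without sh-NC library 1) in the large subunit and -0.37 (without library b) to 0.03 in the small one. Non-overlap counted 10 lower and 4 higher in the large subunit and 3 and 2 in the small one. Of the whole set 20.6% were lower and 23.7% higher, and of all genes tested 10.9% and 30.7%. Only the shares of the set, like the lists, leave out genes at 0 in a library. RPS6, the ribosomal protein phosphorylated by S6 kinase, had 573.3 and 309.6 RPKM under sh-NC and 206.3 and 75.78 RPKM under sh-circMYBL2, a log2 difference of -1.74 (SE 0.67, limma adjusted p = 0.419). RPL8 had 377.2 and 262.0 RPKM against 182.5 and 153.1 RPKM, and RPLP2, of the stalk, 174.1 and 82.66 RPKM against 43.46 and 59.26 RPKM. RPL3 had 127.0 and 73.15 RPKM against 66.96 and 69.98 RPKM, where sh-NC library 2 lay just above libraries a and b. Input RNA of the 2 lists was level, with median changes of 0.01 and 0.03 and 1 call.

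The starts of some of these mRNAs are shown because the tract at the start is the feature by which this class is known, and it stands beside footprint changes of both signs. Each is the first 25 bases of the transcript in RefSeq, 5′ to 3′ on the gene's strand in GRCh38.p14. Capitals mark the initial C and the unbroken run of C or T after it. RPL37A, RPL18 and RPS6 have among the largest decreases of the ribosomal protein genes, RPS23 and RPS24 have increases, and EEF2 and EEF1A1 are elongation factors of the same class. HDLBP and CCT7 begin without such a tract. RPL18, RPS23 and RPS24 were chosen after their values were seen.
RPL37A: CTTTCTgggctcggacctaggtcgc
RPL18: CTCTTTCCggacctggccgagcagg
RPS6: CTCTTTTCCgtggcgcctcggaggc
RPLP2: CCTTTTCCTCCCTgtcgccaccgag
RPS23: CTCTTTCgctcaggcccgtggcgcc
RPS24: CTCTTTTCCTCCTTggctgtctgaa
EEF2: CTCTTCCgccgtcgtcgccgccatc
EEF1A1: CTTTTTCgcaacgggtttgccgcca
HDLBP: aagcgtagcctcttctcctttacca
CCT7: attgtgggttgctgggcggcccggt

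These starts lie at chr2:216498844-216498868 (RPL37A), chr19:48619154-48619178 (RPL18), chr9:19380212-19380236 (RPS6), chr11:809967-809991 (RPLP2), chr5:82278330-82278354 (RPS23) and chr10:78033863-78033887 (RPS24). The tract, a C at the first base followed by at least 4 C or T on the transcript strand, was found at 1429 of 35116 starts in the table (4.07%), at 230 of 3426 genes of the set with a start there (6.71%) and at 33 of 49 ribosomal protein genes (67.3%). The median log2 footprint change was -0.10 for these 33, of which 12 were above 0, and 0.09 for the 16 without the tract. Among the other genes of the set it was 0.06 for the 197 with the tract and 0.04 for those without. Genes with the same kind of start differed widely. RPL18 had 57.76 and 21.76 RPKM under sh-NC and 10.09 and 9.176 RPKM under sh-circMYBL2, a log2 difference of -1.78 (SE 0.64). RPS23 had 11.57 and 11.53 RPKM against 25.72 and 30.55 RPKM, a difference of 1.21 (SE 0.43), on 4 and 9 reads under sh-NC. A match is a description of these letters only.

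Initiation and elongation factors showed values on both sides as well. Of 37 initiation factors 27 were in the set, with 12 above and 15 below 0 and a median of -0.06, and input RNA of 6 fell (3.96% of all genes tested in RNA fell and 4.92% rose). EIF4G2, a scaffold of cap-independent initiation, had 68.82 and 85.27 RPKM under sh-NC and 116.0 and 134.1 RPKM under sh-circMYBL2. PABPC1, the poly(A)-binding protein, had 92.09 and 137.2 RPKM against 182.9 and 168.4 RPKM. EIF3I, of the complex that joins the small subunit to mRNA, had 119.8 and 84.32 RPKM against 71.65 and 67.17 RPKM. The groups did not overlap in these 3 genes, with log2 differences of 0.70, 0.64 and -0.53, none of which passed. EEF2, which moves the ribosome along, had 274.7 and 551.1 RPKM against 437.3 and 319.6 RPKM and overlapped. ETF1, the release factor for stop codons, had 15.85 and 10.54 RPKM against 30.22 and 41.58 RPKM, a difference of 1.39 (SE 0.48, limma adjusted p = 0.36). Its values rest on 6 and 9 reads under sh-NC and 36 and 213 under sh-circMYBL2. Of 16 aminoacyl-tRNA synthetases, 5 were above and 11 below 0 (median -0.12), and input RNA of 8 fell, against the same 3.96%. IARS had 29.56 and 61.14 RPKM against 32.88 and 46.84 RPKM while its RNA fell by 0.54 on the log2 scale.

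The groups to which HDLBP, CCT7 and LMNB1 belong did not share their decrease. All 8 TRiC subunits were in the set, with 4 above and 4 below 0, a median of 0.24 and a range of -2.42 (CCT7) to 1.84. CCT3 had 69.58 and 65.70 RPKM under sh-NC and 70.17 and 63.93 RPKM under sh-circMYBL2, which was level. Of 24 mRNA-binding regulators, 16 were above and 8 below 0 (median 0.34), with 11 higher and 4 lower without overlap. Of the whole set 23.7% were higher and 20.6% lower, and of all genes tested 30.7% and 10.9%. Without sh-NC library 1 the median was -0.09. HDLBP thus stood apart from most of its list. PUM2, a repressor that binds 3′ UTRs, had 123.7 and 104.2 RPKM against 64.20 and 45.82 RPKM, next to HDLBP among the lower ones. LARP1, which binds oligopyrimidine starts, had 93.04 and 105.3 RPKM against 86.87 and 56.80 RPKM. Of 19 genes of the nuclear envelope and lamina, 12 were above and 7 below 0 (median 0.20), and LMNB2 overlapped at 44.76 and 54.54 RPKM against 56.17 and 31.58 RPKM. The 17 cytosolic heat shock chaperones had a median of 0.20 and the 40 hnRNP and SR splicing proteins one of 0.21, with no call by limma or voom.

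Secretory and signalling genes had values on both sides. Of 31 genes of translocation and folding in the endoplasmic reticulum, 22 were above and 9 below 0 (median 0.34, and 0.08 without sh-NC library 1). Without overlap, 11 were higher and 5 lower. Of the whole set 23.7% were higher and 20.6% lower, and of all genes tested 30.7% and 10.9%. CANX, a membrane lectin chaperone, had 52.64 and 108.0 RPKM under sh-NC and 127.0 and 134.4 RPKM under sh-circMYBL2, while CALR, its soluble relative, had 501.6 and 315.6 RPKM against 270.4 and 187.3 RPKM. The pair thus lay on opposite sides, and neither passed (log2 differences 0.78 and -0.82). FLT3, the receptor tyrosine kinase of the line, had 75.99 and 86.78 RPKM against 80.79 and 103.0 RPKM, which overlap (0.17, SE 0.36, limma adjusted p = 0.862), while its input RNA rose by 0.40 (adjusted p = 0.0232). MYBL2, the linear host of the circular RNA, had 21.89 and 71.77 RPKM of footprints against 43.11 and 43.99 RPKM, between the sh-NC values, while its RNA rose by 1.01 (adjusted p = 0.0209); reads of the circular and linear forms cannot be told apart. PTBP1, a splicing and translation regulator, had 67.11 and 69.66 RPKM against 55.55 and 45.15 RPKM (-0.44, SE 0.36, adjusted p = 0.64). Of 20 genes of FLT3 and downstream signalling, 13 were above and 7 below 0 (median 0.24). Of 14 genes of myeloid transcription, 9 were above and 5 below (median 0.28). A pair of its regulators lay on opposite sides: SPI1 had 70.50 and 72.90 RPKM against 42.93 and 44.71 RPKM, and IRF8 21.19 and 53.22 RPKM against 62.85 and 67.68 RPKM. Neither passed limma, with log2 differences of -0.70 (SE 0.35, adjusted p = 0.546) for SPI1 and 0.93 (SE 0.57, adjusted p = 0.618) for IRF8. CTSG, a granule protease whose RNA fell by 0.82 (adjusted p = 0.0161), had 35.39 and 82.33 RPKM against 11.24 and 11.11 RPKM, on 4 to 21 reads a library.

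**Figure D4:**
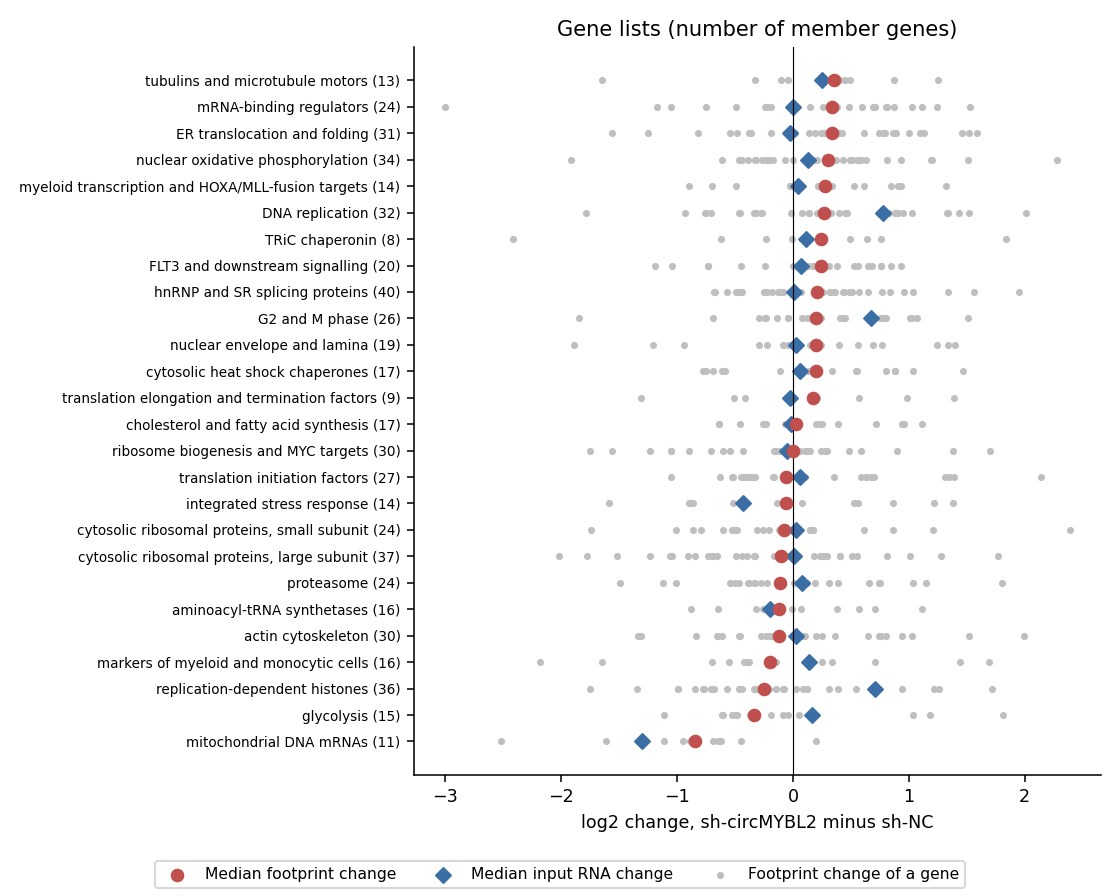
Footprint log2 changes of single genes (grey), their median (red circle) and the median input RNA change (blue diamond) for each gene list with at least 5 genes in the set. Footprint medians span -0.85 (mRNAs of mitochondrial DNA) to 0.35 (tubulins and motors), and RNA medians -1.30 to 0.78.

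Input RNA of the same genes, which the rule did not use, changed in many. Limma called 366 of 4053 genes of the set higher (9.03%, against 4.92% of all genes tested) and 181 lower (4.47%, against 3.96%). With any 1 RNA library left out it called 0 in either direction, whereas voom on the reads called 929 and 587. Footprints did not track these RNA changes closely. Across 4051 genes, Pearson r between the footprint and the RNA change was 0.04 and Spearman rho 0.01, given as a description across genes with a far noisier footprint side. Of the 366 genes with higher RNA (median change 0.43), 213 had a footprint change above 0, with a median of 0.18. Of the 181 with lower RNA (median -0.36), 97 had one above 0, with a median of 0.11.

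Many genes of the cell cycle rose in input RNA, against 4.92% of all genes tested that rose and 3.96% that fell. For DNA replication, input RNA of 22 of 31 tested genes rose and of 0 fell (median 0.78), while footprints of 32 genes had 20 above and 12 below 0 and a median of 0.27. RRM2, the small subunit of ribonucleotide reductase, had 4.567 and 10.12 RPKM of footprints under sh-NC and 26.12 and 35.94 RPKM under sh-circMYBL2, a log2 difference of 2.01 (SE 0.59, limma adjusted p = 0.323). Its input RNA rose by 1.45 (adjusted p = 0.0083), in the same direction. The footprint values of RRM2 rest on 2 and 10 reads under sh-NC and 36 and 213 under sh-circMYBL2. Voom did not call its footprints (adjusted p = 0.306). TYMS, thymidylate synthase, had 29.53 and 82.88 RPKM against 107.9 and 149.1 RPKM, beside an RNA change of 1.41 (adjusted p = 0.0072). MCM4, of the replicative helicase, had 32.06 and 87.63 RPKM against 90.55 and 88.31 RPKM, and its RNA was 9.77 ± 0.190 FPKM under sh-NC and 31.0 ± 0.151 FPKM under sh-circMYBL2 (n = 2 each). In MCM4 sh-NC library 2 already had the footprint level of sh-circMYBL2. PCNA, the sliding clamp, had 305.8 and 212.4 RPKM against 175.9 and 236.9 RPKM, which overlap, although its RNA rose by 0.65 (adjusted p = 0.0109). MCM3 likewise overlapped at 36.63 and 115.1 RPKM against 46.56 and 46.75 RPKM, with an RNA change of 0.96 (adjusted p = 0.00783). For G2 and M phase, RNA of 18 of 24 genes rose (median 0.67) and footprints had a median of 0.20. TOP2A, which untangles DNA, had 37.77 and 36.82 RPKM against 37.20 and 52.32 RPKM, beside an RNA change of 1.11.

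Replication-dependent histones are made in S phase from mRNAs that lack a poly(A) tail. Input RNA of 25 of 35 tested genes rose (4.92% of all genes tested) and of 0 fell (median 0.71), while footprints of the 36 in the set had 11 above and 25 below 0, with a median of -0.25 that became 0.42 under quantile normalization and 0.07 without sh-NC library 1. HIST1H1B, a linker histone, had 624.8 and 656.6 RPKM of footprints under sh-NC and 533.1 and 491.9 RPKM under sh-circMYBL2, a log2 difference of -0.32 (SE 0.37). Its input RNA rose by 1.25 (limma adjusted p = 0.0117), from 65.3 ± 0.336 to 158 ± 19.7 FPKM (n = 2 each). HIST1H3B had 887.3 and 353.9 RPKM against 545.0 and 378.1 RPKM, which overlap, beside an RNA change of 1.02. HIST1H4C ranged most, at 1006 and 123.8 RPKM against 293.0 and 272.5 RPKM, on 36, 10, 33 and 132 reads. For these genes the sh-NC spread was larger than the difference between the hairpins, HIST1H1B excepted.

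Messages of mitochondrial DNA fell in input RNA, while no footprint change of theirs passed limma or voom. They encode core subunits of the respiratory chain and are translated by ribosomes inside the organelle. Of 11 in the set, input RNA of 10 fell (median -1.30, with 3.96% of all genes tested falling). Footprint changes of 10 were below 0, with a median of -0.85 that became 0.22 under quantile normalization. Without overlap, 8 were lower and 0 higher (20.6% and 23.7% of the whole set, 10.9% and 30.7% of all genes tested). MT-ND4 had 599.9 and 222.8 RPKM of footprints under sh-NC and 148.5 and 95.16 RPKM under sh-circMYBL2, beside an RNA change of -1.39 (limma adjusted p = 0.0072). MT-ND1 had 368.7 and 343.7 RPKM against 246.4 and 156.9 RPKM, beside an RNA change of -0.95 (adjusted p = 0.0117). MT-ND6, the only one of the list on the other strand, had 1436 and 1170 RPKM against 919.6 and 533.8 RPKM, while its RNA differed by 0.21, which limma did not call (adjusted p = 0.208) and voom called higher (adjusted p = 3.11e-10). Strand setting was not given in the sources used here, so reads of MT-ND6 and of messages opposite to it cannot be told apart with certainty. The 34 nuclear genes of oxidative phosphorylation had a footprint median of 0.30 with 21 above and 13 below 0, and 4 RNA calls, all higher.

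CA2, a carbonic anhydrase, had a large RNA decrease beside footprints of similar level that rest on few sh-NC reads. Its input RNA fell from 109 ± 0.709 to 21.8 ± 0.483 FPKM (n = 2 each), a log2 change of -2.27 (limma adjusted p = 0.002). Its footprints were 85.89 and 55.82 RPKM under sh-NC and 52.76 and 85.46 RPKM under sh-circMYBL2, almost the same pair of values in each group. They rest on 15 and 22 reads under sh-NC and 29 and 202 reads under sh-circMYBL2. The log2 change was -0.04 (SE 0.47, confidence limits -1.32 and 1.24), so a 2-fold difference either way lies within the limits. Among amino acid genes of the integrated stress response, RNA of 7 of 14 fell and of 0 rose (median -0.43, with 3.96% of all genes tested falling), and footprints had 6 above and 8 below 0. Their footprint median of -0.06 was -0.30 by voom, -0.33 without sh-NC library 1 and 0.19 without library b. SLC7A5, a transporter of large neutral amino acids, had 56.36 and 29.52 RPKM against 32.56 and 24.23 RPKM, with RNA lower by -0.96 on the log2 scale (adjusted p = 0.0102). In glycolysis, RNA of 4 of 15 rose (4.92% of all genes tested) and footprints had 4 above and 11 below 0. Their footprint median of -0.34 was 0.01 without sh-NC library 1 and 0.02 under quantile normalization. GAPDH had 297.7 and 224.1 RPKM against 164.5 and 174.1 RPKM, beside an RNA rise of 0.44 (adjusted p = 0.0163).

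**Figure D5:**
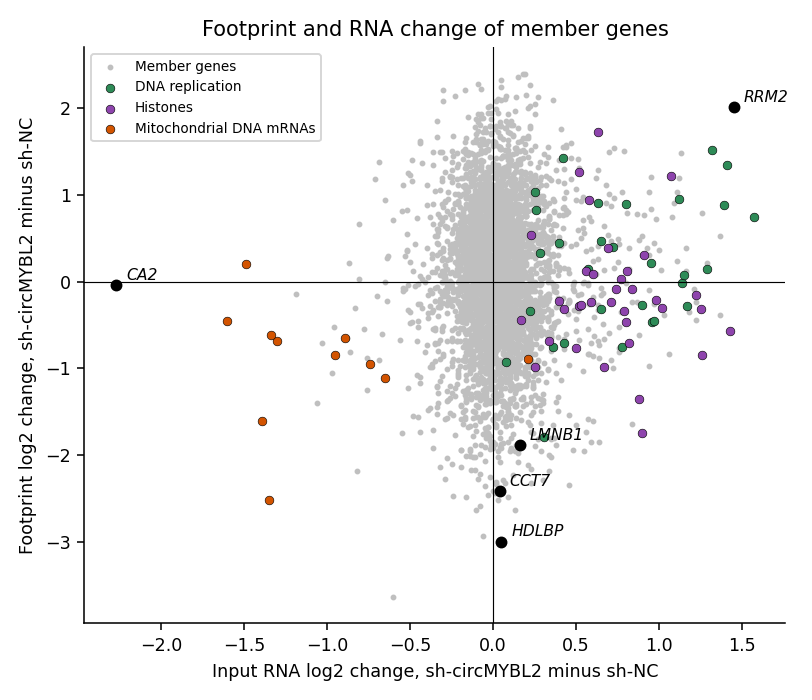
Footprint log2 change against input RNA log2 change of each gene of the set (both sh-circMYBL2 minus sh-NC), with DNA replication, histone and mitochondrial DNA genes in colour. HDLBP, CCT7 and LMNB1 lie low near an RNA change of 0, and CA2 lies far left at a footprint change near 0.

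Translational efficiency, the footprint change minus the RNA change of a gene, was tested in 1 fit over all 8 libraries. It shares its footprint values with the changes above and is no separate evidence for them. The fit gives each gene 1 variance over both assays, and input RNA was far tighter than footprints (median SE 0.06 against 0.66). The SE of a difference could thus fall below that of its footprint part, as in RPL37A (0.27 against 0.43) and PHF6 (0.35 against 0.62). The adjusted p-values of this fit can therefore understate the footprint spread. Limma called 12 of 4051 genes of the set higher (0.296%, against 5.05% of all genes tested) and 19 lower (0.469%, against 0.266%). These counts rest on single libraries: with any 1 RNA library left out both were 0, without sh-NC footprint library 1 they were 703 and 539, and without sh-NC library 2 they were 1017 and 894. Leaving out library a gave 83 and 93, and leaving out library b 41 and 88. HDLBP was among the lower (log2 change -3.04, SE 0.39, adjusted p = 0.0247), as were CCT7 (-2.45, adjusted p = 0.0367), SF3A2 (-2.55, 0.0341), LMNB1 (-2.06, 0.0303), RPL37A (-1.91, 0.0289) and HIST1H1B (-1.57, 0.0386). TAP2, of the peptide transporter for antigen presentation, had 11.41 and 9.273 RPKM under sh-NC and 0.6044 and 1.406 RPKM under sh-circMYBL2, on 6, 11, 1 and 10 reads. The higher ones include PHF6 (2.27, adjusted p = 0.0303), ZHX1 (2.38, 0.0328) and CDC42SE2 (2.04, 0.0397). Under sh-NC, PHF6 had 1 and 3 reads, ZHX1 2 and 8, and CDC42SE2 2 and 3. All were among the genes chosen above for a large footprint increase without overlap. OPA1, which fuses mitochondrial inner membranes, had 5.756 and 6.377 RPKM against 20.57 and 23.39 RPKM, on 4 and 10 reads under sh-NC. CNOT9, of the deadenylase complex, had 4.597 and 4.074 RPKM against 17.53 and 17.49 RPKM, on 2 and 4 reads under sh-NC. TAP2, OPA1 and CNOT9 were chosen after their values were seen. CA2 had a difference of 2.23 that limma did not call (adjusted p = 0.0528) and voom did (adjusted p = 0.043).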

How the data were processed

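Footprints and input RNA of MOLM-13 cells were measured in 8 libraries. Per the submitters' processing notes, the authors worked on hg38 with HISAT2, Bowtie, cutadapt, DESeq2 and featureCounts; the role and version of each tool, and the strand setting, were not given in the sources used here. The deposited tables hold RPKM (footprints) and FPKM (input RNA), scaled by the authors. Read numbers were recovered from steps of the values, first for microRNA hairpins (98.4% to 99.4% of values whole) and then per gene within 0.0005 reads, for 30193 of 30194 genes and all 4202 members. Group names came from the sample titles.

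Each table was fitted whole with limma 3.58.1 in R 4.3.3 (two-sided, with a mean-variance trend) after a log2 transform with a pseudocount of 1. Genes needed a mean of 1 or more, with Benjamini-Hochberg adjustment over all of them and a threshold of 0.05. Log2 changes are on that scale, which understates low genes. A single gene's exact permutation test of 2 against 2 libraries cannot go below p = 0.333. Translational efficiency was the interaction of hairpin and assay over 8 libraries; it gives each gene 1 variance over both assays. The scripts were tested on simulated data. Alternatives were voom on the recovered reads, pseudocounts of 0.1 and 5, no filter, quantile normalization, protein-coding scaling, a fit of the member genes alone, a replicate block and leaving out each library. Starts and positions came from RefSeq (GRCh38.p14).

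The members and the gene lists were chosen with earlier results of these data known. Named genes were FLT3, MYBL2 and PTBP1; the 12 lower and 12 higher with the largest change among those with at least 100 reads and no overlap; the 10 highest levels; up to 4 of each list by level; up to 5 with the smallest voom p per direction; up to 6 RNA-called genes per direction; and genes at the detection boundary. Other genes the text names were chosen after their values were seen.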

Additional observations from a re-analysis of the deposited data

Results flagged for a closer look

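Outside the set, 1607 protein-coding genes had reads in both sh-circMYBL2 footprint libraries and none in either sh-NC library, against 3 genes (TMOD1, ADAMTSL5 and CCDC189) with the reverse. They stand here because they have reads in genes the comparisons above leave out. A count of 0 in the shallower sh-NC libraries does not show that these genes lack footprints there. The gene with the most reads among them was MAP3K1, a kinase of stress signalling, at 9.51 and 15.8 RPKM from 19 and 136 reads under sh-circMYBL2. PPP1R12A, a subunit of myosin phosphatase, followed at 6.54 and 7.37 RPKM from 20 and 97 reads, GMFB at 10.2 and 9.47 RPKM from 21 and 84 reads, and MAP3K7, a kinase of cytokine signalling, at 9.08 and 10.6 RPKM from 17 and 85 reads. Protein-coding reads numbered 33708 and 88695 under sh-NC and 125760 and 584182 under sh-circMYBL2. The part of this depth in the 1607 genes was not tested.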

How the results depend on the processing

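Footprint calls of 0 by limma held under every alternative run except voom, with 19 genes lower. RNA calls higher were 366 and became 43 with no filter, 929 by voom, 0 with a replicate block and 0 to 0 with 1 RNA library left out; lower calls of 181 became 20, 587, 0 and 0 to 0. Translational efficiency calls higher (12) became 42 with a pseudocount of 0.1, 0 with 5, 0 under quantile normalization and 0 to 1017 with 1 library left out; lower calls (19) became 39, 0, 0 and 0 to 894, and 30 by voom. The cause was not tested. RNA libraries of the same number deviated with r = 0.0265 across 12489 genes, which gives no sign that the numbers pair them. No paired analysis was possible for footprints because the sh-circMYBL2 columns carry no replicate number.

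The median change of the set (0.04) was 0.06 and 0.01 with pseudocounts of 0.1 and 5, -0.17 under quantile normalization, -0.13 with protein-coding scaling, -0.03 by voom and 0.00 to 0.08 with 1 library left out. With protein-coding scaling, list medians were -0.25 (initiation), 0.02 (heat shock, lamina, splicing, G2 and M phase), -0.17 (ribosome biogenesis), 0.09 (DNA replication), -0.29 (proteasome), -0.31 (actin), 0.06 (FLT3 signalling) and 0.10 (myeloid transcription). Under quantile normalization they were 0.44 (elongation), 0.60 (TRiC), 0.72 (heat shock), -0.24 (ribosome biogenesis), 0.42 (histones), 0.22 (mitochondrial DNA), 0.14 (actin) and 0.52 (myeloid transcription). By voom they were 0.05 (lamina), 0.09 (splicing), -0.13 (ribosome biogenesis), 0.11 (DNA replication) and 0.18 (myeloid transcription, 0.23 with a pseudocount of 5). With 1 footprint library left out, list medians ranged over -0.53 to 0.04 (large subunit), -0.37 to 0.03 (small subunit), -0.33 to 0.19 (integrated stress response), -0.33 to 0.01 (glycolysis), -0.08 to 0.41 (elongation), -0.47 to 0.20 (aminoacyl-tRNA synthetases), -0.18 to 0.30 (TRiC), -0.25 to 0.51 (heat shock), -0.01 to 0.28 (lamina), 0.07 to 0.37 (splicing), -0.09 to 0.51 (mRNA-binding regulators), -0.25 to 0.05 (ribosome biogenesis), 0.08 to 0.45 (endoplasmic reticulum), 0.10 to 0.40 (G2 and M phase), -0.70 to 0.07 (histones), -1.28 to -0.43 (mitochondrial DNA), -0.17 to 0.30 (oxidative phosphorylation), -0.17 to 0.06 (proteasome), -0.28 to 0.39 (cholesterol), 0.04 to 0.42 (tubulins), 0.02 to 0.33 (FLT3 signalling) and 0.20 to 0.47 (myeloid transcription). MYBL2 footprints (0.13) became -0.06 with protein-coding scaling, -0.24 by voom and -0.71 to 0.96 with 1 library left out, and FLT3 (0.17) -0.02 with protein-coding scaling and -0.01 to 0.34. The sh-NC depth limits every footprint comparison.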
